A study of Mus musculus with 10 samples.

Results

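The complex I genes were defined as the protein-coding mouse genes whose symbols start with *Nduf*, which gave 46 of the 51717 genes in the summed table. Another 5 *Nduf* symbols were left out because the annotation used here (Gencode M21) gives them as pseudogenes or as a noncoding transcript. The 46 genes comprised 7 core subunits, 9 accessory subunits of the peripheral arm, 19 accessory subunits of the membrane arm, *Ndufab1*, the pair *Ndufa4* and *Ndufa4l2*, and 8 assembly factors of the *Ndufaf* series. Of these, 45 had enough reads to be tested, and only *Ndufa4l2* did not.

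Complex I is the NADH dehydrogenase at the entry of the mitochondrial respiratory chain. It passes electrons from NADH to ubiquinone through flavin and iron-sulfur centers in its peripheral arm and pumps protons through its membrane arm. Nuclear genes encode most of its subunits, mitochondrial DNA encodes the core of the membrane arm, and assembly factors build the enzyme without staying in it. Pyruvate that the mitochondrial pyruvate carrier (MPC) brings into mitochondria feeds the NADH on which complex I acts.

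RNA was sequenced from granulocyte-macrophage progenitors (GMPs), bone marrow cells that give rise to neutrophils and monocytes. Both groups came from male mice of strain C57Bl6/N that carry *ROSA26 CreER*+/- and ate tamoxifen chow for 2 wk before they were taken down, which controls for Cre and the drug. The *Mpc2* KO group also carried *Mpc2* fl/fl, so that tamoxifen deleted an exon of this MPC subunit, and the WT group did not. Each group had 5 samples. The GMPs were CD45.2+ donor cells of irradiated chimeras, so these genotypes are those of the CD45.2+ marrow, and the chimeras ate the chow. Apart from full chimeras for a survival test, the paper's chimeras also received WT competitor marrow, which made part of their blood cells. CreER is expressed in all blood cells derived from the CD45.2+ marrow, so the deletion was not limited to GMPs. A KO sample pooled a pair of mice where a WT sample held a single mouse.

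The samples held 14033776 to 19745405 estimated reads, and the least covered tested complex I gene had 294 reads in its lowest sample. *Mpc2* fell in the KO samples (log2 fold change −1.46, standard error 0.24, adjusted p = 0.0156 by edgeR's quasi-likelihood test), to 17.1 to 43.9 normalized CPM (counts scaled to the effective library size) against 60.9 to 117 CPM in WT. Every KO sample lay below every WT sample, although some of the other fits did not call the gene. The defining GMP markers *Mpo* and *Elane* were at 31826 CPM or more and 8375 CPM or more in every sample. The 13 GMP markers summed to 90284 to 127546 CPM in WT samples and 53898 to 92197 CPM in KO samples. Their median log2 fold change was −0.38, and 0 of the 13 passed an adjusted p of 0.05 in edgeR. At an unadjusted p under 0.05, 9 of the 13 were lower in KO, where 5.35% of all genes tested were. *Mpo* (−0.52) and *Elane* (−0.63) were among these. The log2 fold changes of 3 of the 13, *Kit* (0.08), *Cd34* (0.25), and *Cd27* (0.22), were above 0. Summed erythroid markers (7 genes) ranged from 8.81 to 41.6 CPM in WT and 23.8 to 207 CPM in KO. Of the 6 tested erythroid markers, 5 were higher at an unadjusted p under 0.05 in edgeR. Summed macrophage markers (6 genes) ranged from 14.9 to 28.6 CPM in WT and 31.2 to 53.6 CPM in KO. Of the 5 tested macrophage markers, *C1qa*, *C1qb*, and *C1qc* passed an adjusted p of 0.05 in edgeR (log2 fold changes 1.25, 1.35, and 1.59). *Vcam1* (0.18) and *Adgre1* (−0.39) did not pass. Summed megakaryocyte markers (4 genes) were at 8.55 to 17.1 CPM in WT and 21.4 to 29.6 CPM in KO, and summed mature neutrophil markers (6 genes) at 109.6 to 416 CPM and 101.5 to 724 CPM, with 3 of 3 and 4 of 6 tested genes higher at an unadjusted p under 0.05. Summed B cell markers (5 genes) were at 56.2 to 65.9 and 48.9 to 64.8 CPM, and summed T and NK cell markers (6 genes, nearly all *Nkg7*) at 1808 to 2629 and 1632 to 2194 CPM. Their part in the values of the complex I genes was not tested, and fewer cells of a type cannot be told apart from less RNA per cell in bulk samples.

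For the leading genes of the comparison, the 150 bases before the annotated start are shown from the RefSeq promoter table (GRCm38.p6), 5′ to 3′ on the strand of the gene. *Ndufv2*, *Ndufb8*, and *Ndufb6* had 3 of the 4 smallest unadjusted p-values among the complex I genes, and *Ndufa12* is shown as an abundant gene with a motif match. Capitals mark a match to the core of the motif of NRF1, a factor known to drive nuclear genes of the respiratory chain. The windows lie at chr17:66101560-66101709 (minus strand), chr19:44555443-44555592 (minus strand), chr4:40279422-40279571 (minus strand), and chr10:94198885-94199034 (plus strand), in this order. Gencode M21 starts *Ndufa12* further upstream, at 94198720, so the window before its RefSeq start lies inside the gene in that annotation.
Ndufv2: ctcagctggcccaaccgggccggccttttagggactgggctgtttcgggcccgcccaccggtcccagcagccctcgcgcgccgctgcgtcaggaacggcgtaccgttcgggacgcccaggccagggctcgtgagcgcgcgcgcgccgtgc
Ndufb8: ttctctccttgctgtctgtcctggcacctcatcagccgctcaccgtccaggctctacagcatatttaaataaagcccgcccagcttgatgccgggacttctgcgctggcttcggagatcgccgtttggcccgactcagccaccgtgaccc
Ndufb6: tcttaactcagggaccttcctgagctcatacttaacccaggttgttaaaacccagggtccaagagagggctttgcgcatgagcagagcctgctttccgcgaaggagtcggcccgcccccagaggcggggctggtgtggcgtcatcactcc
Ndufa12: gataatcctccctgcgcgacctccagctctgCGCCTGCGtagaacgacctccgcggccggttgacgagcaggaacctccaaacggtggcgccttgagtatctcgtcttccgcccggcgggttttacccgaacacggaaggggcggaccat

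The RefSeq table held a promoter window, from 250 bases before to 50 bases after the start, for 40 of the 46 genes. The NRF1 core CGCANGCG, searched on both strands, was in the windows of 13 of the 40 genes (32.5%) and in 8.21% of all 32851 windows. The ETS core CCGGAAG was in 6 of 40 (15%, against 8.86% of all windows), the YY1 site AAGATGGCG in 6 of 40 (15%, against 1.403%), and the ERR element TCAAGGTCA in 0 of 40 (against 0.423%). The windows of *Ndufv2* and *Ndufb8* held no match to these 4 motifs, and that of *Ndufb6* held an ETS core upstream of the bases shown. A complex I gene was counted once if any of its windows matched, while the share of all windows counts each window. The shares are therefore not fully alike where a gene has several windows. These matches describe the sequences and were not tested against expression.

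Levels were compared between genes as TPM, the abundance of transcripts corrected for their length. The 46 genes together made up 2.25 to 2.51% of all TPM in WT samples and 2.45 to 2.72% in KO samples. From the highest to the lowest tested gene, mean TPM over the 10 samples differed 133-fold, 38 genes had at least 100 TPM, and 20 had at least 500 TPM. *Ndufa4*, first named as a complex I subunit and since found with complex IV, was the highest at 2609 ± 254 TPM in WT and 3063 ± 379 TPM in KO (SD, n = 5 each). It was followed by *Ndufb8* (1488 ± 76.0 TPM in WT, SD, n = 5), *Ndufa1* (1422 ± 155), *Ndufa12* (1183 ± 8.95), and *Ndufb7* (1146 ± 14.9), of which *Ndufb8* and *Ndufa1* did not differ beyond their spread.

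The low end held assembly factors and 1 core subunit. *Ndufaf4* (19.95 ± 2.59 TPM in WT, SD, n = 5), *Ndufaf5* (20.2 ± 1.84), *Ndufaf7* (26.0 ± 3.30), *Ndufaf1* (30.1 ± 3.52), and *Ndufs1* (31.3 ± 3.45) were the lowest, and *Ndufs1* and *Ndufaf1* did not differ beyond their spread. Median TPM was 41.5 over the 8 assembly factors, 194 over the 7 core subunits, 620 over the 19 membrane arm subunits, and 736 over the 9 peripheral arm accessory subunits. *Ndufs1*, whose product is the largest core subunit and carries iron-sulfur clusters, thus lay far under the other core subunits, which had 116 to 642 TPM in WT. *Ndufa4l2*, a relative of *Ndufa4* known as a hypoxia-induced gene, was listed at 0 reads in all 10 samples, which at 3 reads a sample allows up to 0.152 to 0.214 CPM, for counting error alone.

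**Figure D1:**
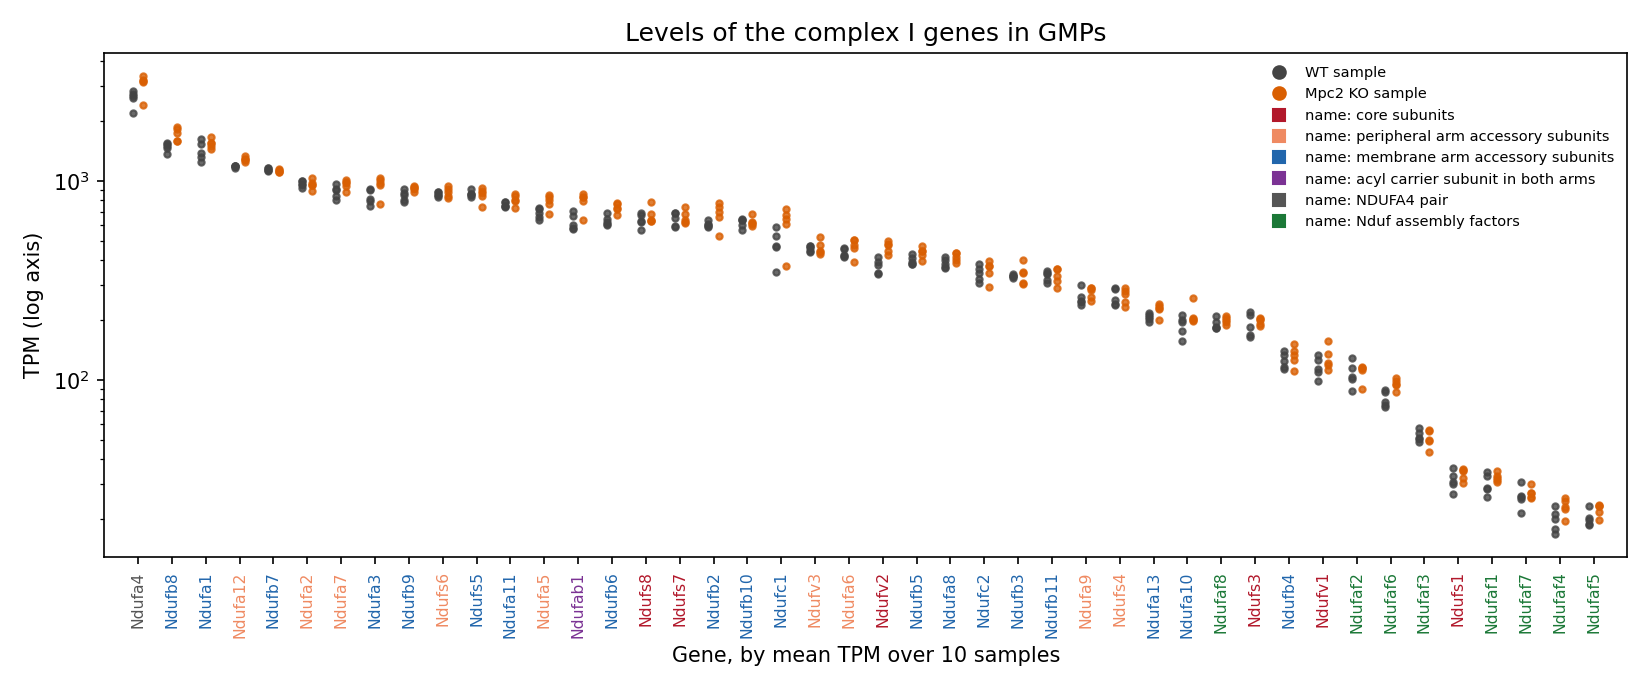
TPM (log axis) of 44 of the 45 tested complex I genes in each of the 10 samples, ordered by mean TPM, with WT samples in grey, Mpc2 KO samples in orange, and the colour of a gene name giving its role. Ndufa4 is highest at 2609 TPM in WT, and assembly factors and Ndufs1 are at the low end.

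No complex I gene passed an adjusted p-value of 0.05 between *Mpc2* KO and WT GMPs (0 of 45, edgeR's quasi-likelihood test), where 0.331% of the 12381 genes tested passed. At an unadjusted p-value under 0.05, 4 complex I genes were higher in KO, where 4.89% of all genes tested were, and 0 were lower, where 5.35% were. DESeq2 called 1 of the 45 genes, *Ndufv2*, where it called 1.09% of all genes with an adjusted p, and 5 were higher at an unadjusted p under 0.05, where 2.63% of all genes were, low counts included. Limma on log2(TPM + 1) called 0, with 9 higher at an unadjusted p under 0.05, where 6.84% of all genes were and the median over all genes was 0.05. Differences were small, with fitted fold changes of 0.936 to 1.18. The 95% confidence interval of each of the 45 genes lay within 1.5-fold in either direction, and that of 26 genes lay within 1.2-fold.

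The fitted values leaned upward, with 37 of 45 log2 fold changes above 0, where 49.6% of all genes tested were, and a median of 0.07 against −0.00181 over all genes. All 7 core subunits were above 0, as were 7 of 9 peripheral arm and 15 of 19 membrane arm accessory subunits, *Ndufab1*, *Ndufa4*, and 6 of 8 assembly factors. The genes are measured in the same libraries and are not independent, so these counts describe the 10 samples. The count moved with single libraries: 28 of 45 values were above 0 without KO replicate 1 (median 0.03) and 42 of 45 without KO replicate 2 (median 0.12).

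**Figure D2:**
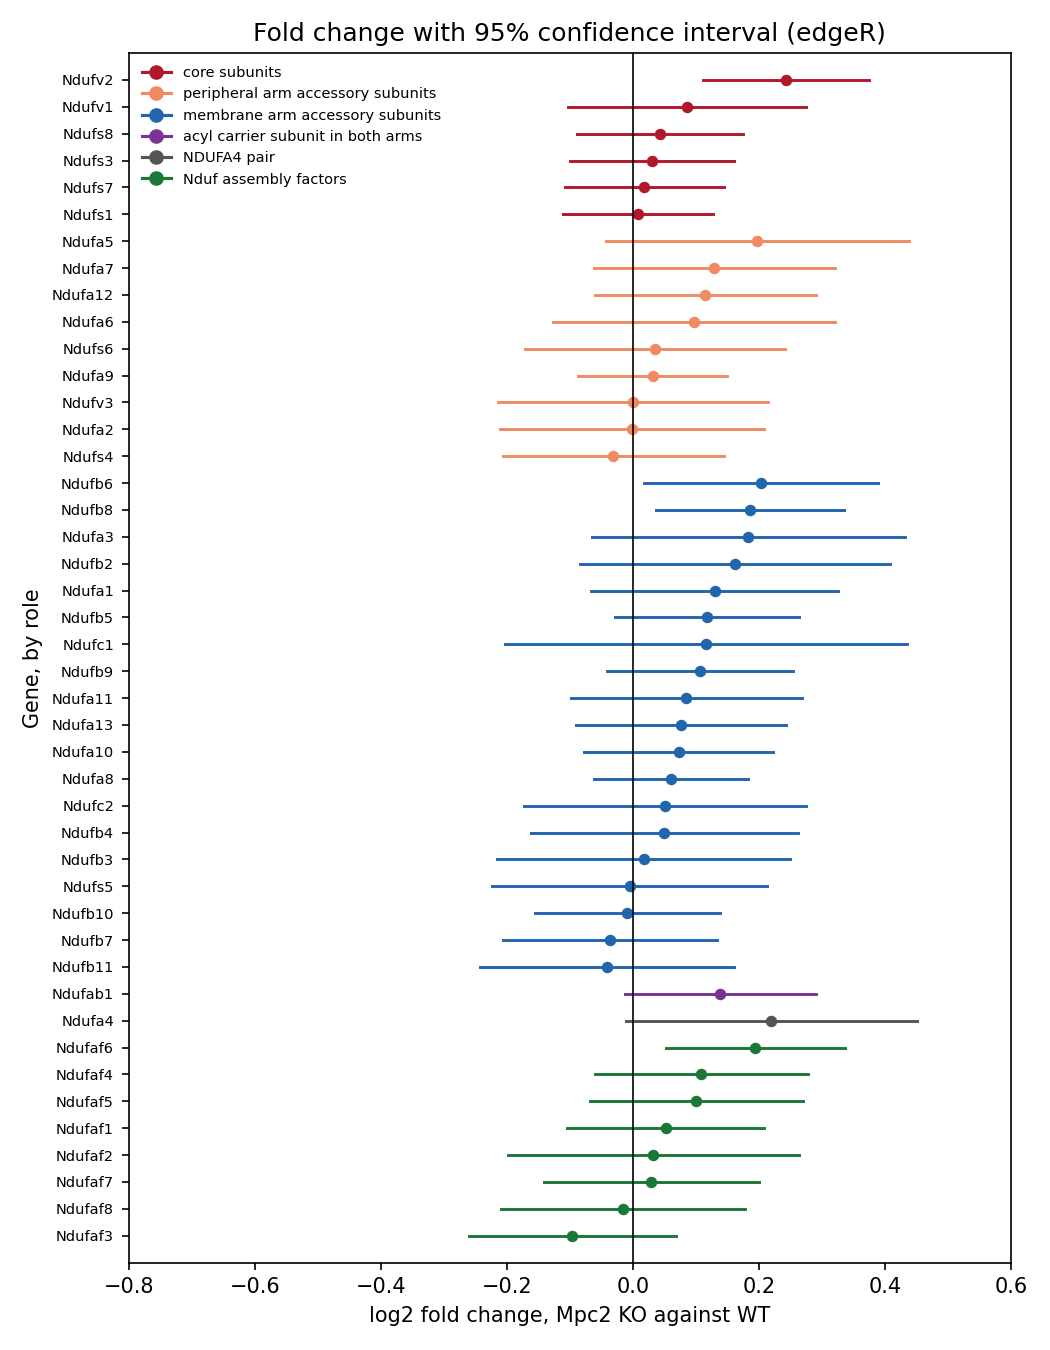
Fitted log2 fold change of Mpc2 KO against WT (points) with its 95% confidence interval (bars) for 44 of the 45 tested complex I genes, grouped and coloured by role. The intervals of Ndufv2, Ndufaf6, Ndufb8, and Ndufb6 lie above 0, and no interval lies below 0.

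Of the core subunits, *Ndufv2* had the smallest p-value of any complex I gene. Its product carries an iron-sulfur cluster in the NADH-oxidizing tip of the peripheral arm, and the gene (ENSMUSG00000024099) spans 66078638 to 66101559 of chromosome 17 in GRCm38. CPM values were 348, 397, 368, 372, and 395 in WT replicates 1 to 5 and 453, 401, 449, 471, and 452 in KO replicates 1 to 5. Every KO sample lay above every WT sample, with KO replicate 2 close to the highest WT sample. The log2 fold change was 0.24 (standard error 0.06), with an unadjusted p of 0.00143 and an adjusted p of 0.158 from edgeR, so it did not pass. The exact two-sided permutation test gave p = 0.00794, the smallest that 5 samples against 5 allow. Any gene with non-overlapping groups gets this value, which is not adjusted for the number of genes. Over the 24 other fits, the log2 fold change stayed between 0.22 and 0.32. The adjusted p ranged from 0.0139 with DESeq2 to 0.387, and passed also without KO replicate 2 (edgeR, 0.0432).

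The fitted log2 fold changes of the other core subunits were 0.00776 to 0.09. *Ndufv1*, which binds NADH and the flavin, was at 203 ± 10.9 CPM in WT and 216 ± 31.4 CPM in KO (SD, n = 5 each), with 248 and 251 CPM in KO replicates 1 and 2 and 187 to 202 CPM in the rest. *Ndufs1* was at 84.2 ± 2.90 CPM and 84.7 ± 3.94 CPM, *Ndufs3* at 179 ± 8.74 and 183 ± 12.9 CPM, *Ndufs7* at 397 ± 23.5 and 402 ± 17.9 CPM, and *Ndufs8* at 414 ± 18.0 and 427 ± 28.8 CPM, in WT and KO (SD, n = 5 each). The groups overlapped for each of these 5 genes.

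Of the accessory subunits of the membrane arm, *Ndufb8* and *Ndufb6* had unadjusted p-values under 0.05. *Ndufb8*, whose protein is lost when complex I is not assembled and serves as a marker of it, measured 651, 792, 793, 740, and 745 CPM in WT replicates 1 to 5 and 870, 834, 847, 900, and 782 CPM in KO replicates 1 to 5. All KO samples but replicate 5 lay above all WT samples. The fit gave a log2 fold change of 0.19 (standard error 0.07, unadjusted p = 0.0183, adjusted p = 0.371 from edgeR).

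*Ndufb6* measured 242, 304, 312, 304, and 312 CPM in WT replicates 1 to 5 and 372, 282, 350, 354, and 338 CPM in KO replicates 1 to 5. WT replicate 1 and KO replicate 2 were the lowest of their groups, and the other 4 KO samples lay above all WT samples. The log2 fold change of 0.20 had a standard error of 0.09, an unadjusted p of 0.0338, and an adjusted p of 0.432 in edgeR. *Ndufb7* and *Ndufb11* were among the 5 lower genes with the smallest p-values, at 485 ± 44.8 and 473 ± 40.7 CPM and at 265 ± 20.1 and 258 ± 38.4 CPM in WT and KO (SD, n = 5 each), with overlapping groups. In the peripheral arm, *Ndufs4*, whose loss in mice gives a Leigh-like disease, was at 169 ± 4.93 CPM in WT and 165 ± 22.9 CPM in KO (SD, n = 5 each).

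*Ndufa4* measured 877, 1082, 1076, 930, and 1032 CPM in WT replicates 1 to 5 and 1311.5, 856, 1191, 1221, and 1240 CPM in KO replicates 1 to 5. KO replicate 2 was below every WT sample, and the other 4 KO samples were above every WT sample. The log2 fold change was 0.22 (standard error 0.11, unadjusted p = 0.0606, adjusted p = 0.510 from edgeR) and 0.31 without KO replicate 2 (adjusted p = 0.0984 from edgeR). *Ndufab1*, the mitochondrial acyl carrier protein found in both arms, had the same pattern, at 324 to 358 CPM in WT, 316 CPM in KO replicate 2, and 381 to 414 CPM in the remaining 4. The fitted value was 0.14 on the log2 scale (standard error 0.07, edgeR adjusted p = 0.529).

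**Figure D3:**
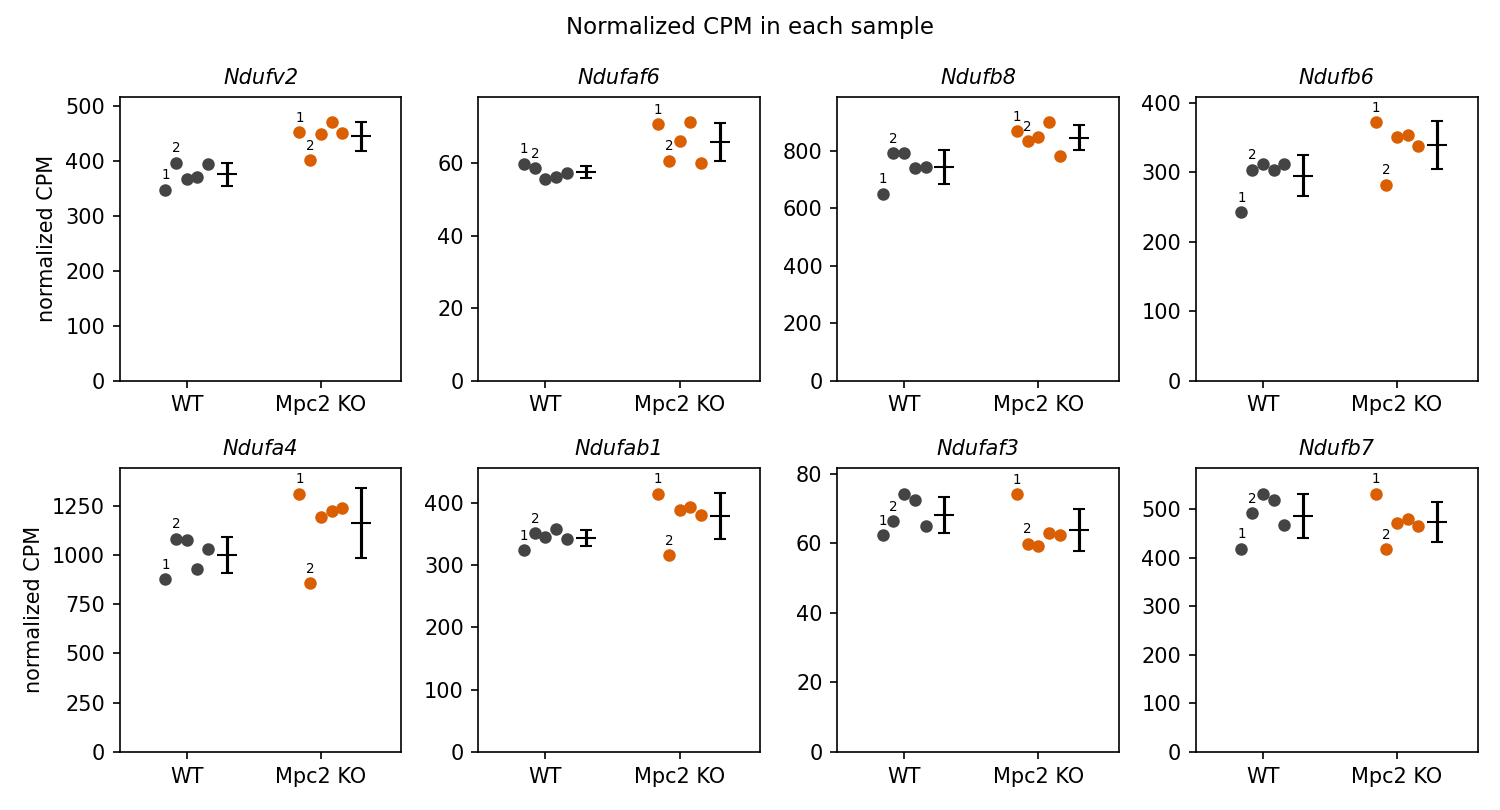
Normalized CPM of 8 complex I genes in each WT (grey) and Mpc2 KO (orange) sample, with the group mean and SD (bars, n = 5) and replicates 1 and 2 numbered. Every KO sample of Ndufv2 and Ndufaf6 lies above every WT sample, and KO replicate 2 is the lowest KO sample of Ndufb6, Ndufa4, and Ndufab1.

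Of the assembly factors, *Ndufaf6*, which is needed for assembly of the enzyme around mtND1, had non-overlapping groups. It measured 59.9, 58.6, 55.8, 56.3, and 57.2 CPM in WT replicates 1 to 5 and 70.8, 60.8, 66.3, 71.4, and 60.3 CPM in KO replicates 1 to 5. The lowest KO sample was close to the highest WT sample. The log2 fold change was 0.19 (standard error 0.07, unadjusted p = 0.0108, adjusted p = 0.305 from edgeR). *Ndufaf6* and *Ndufv2* were the 2 complex I genes with every KO sample above every WT sample, as were 1.11% of all genes tested, and 0 had every KO sample below, as did 1.32%.

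The other assembly factors overlapped between the groups. *Ndufaf1*, which acts on the membrane arm, was at 41.1 ± 2.25 CPM in WT and 42.6 ± 3.42 CPM in KO (SD, n = 5 each). *Ndufaf3* and *Ndufaf4*, whose products bind each other, went in different directions, with *Ndufaf3* at 68.1 ± 5.08 and 63.7 ± 6.06 CPM (log2 fold change −0.10) and *Ndufaf4* at 58.5 ± 4.61 and 63.0 ± 5.82 CPM (log2 fold change 0.11) in WT and KO (SD, n = 5 each). Neither passed the test, and *Ndufaf3* had the lowest fitted value of the 45 genes. *Ndufaf2*, *Ndufaf5*, *Ndufaf7*, and *Ndufaf8* were at 52.0 ± 4.59, 23.0 ± 0.861, 36.3 ± 3.50, and 85.9 ± 10.5 CPM in WT and 53.1 ± 8.32, 24.6 ± 2.33, 37.1 ± 2.57, and 85.0 ± 8.12 CPM in KO (SD, n = 5 each).

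KO replicate 2 and WT replicate 1 stood apart in the complex I genes. The median over the 45 genes of the log2 CPM minus the WT mean was −0.12 in KO replicate 2 and −0.11 in WT replicate 1, and between −0.00152 and 0.09 in the other WT samples. In KO replicate 1 it was 0.24, with all 45 genes above their WT mean, and in KO replicates 3, 4, and 5 it was 0.07, 0.11, and 0.05. Without KO replicate 2, 14 complex I genes had an unadjusted p under 0.05 and all were higher in KO, where 5.97% of all genes tested were, and *Ndufv2* alone passed an adjusted p of 0.05.

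**Figure D4:**
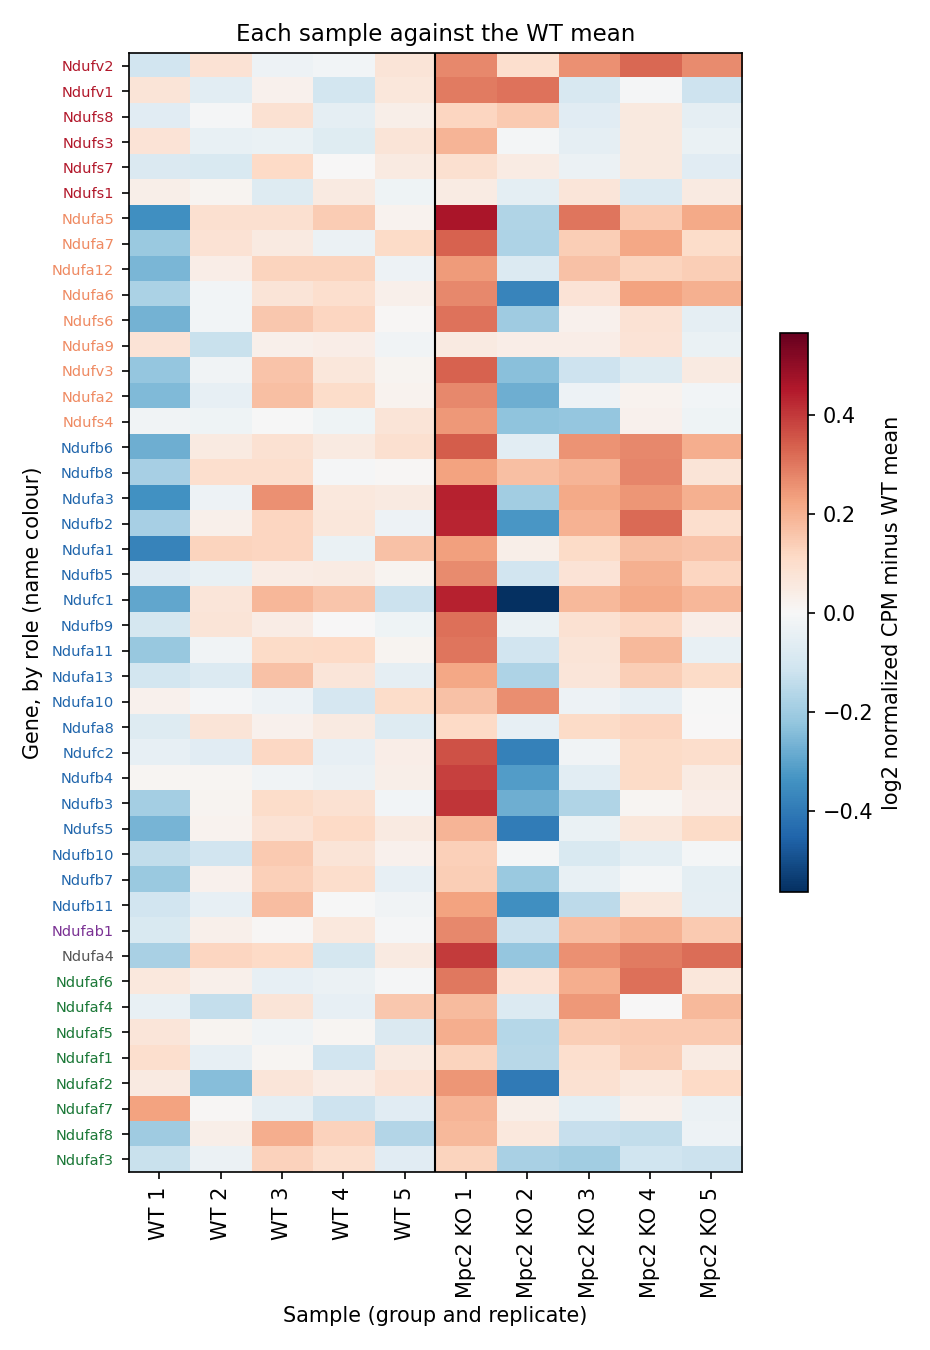
Log2 normalized CPM minus the WT mean (colour) of 44 of the 45 tested complex I genes in each sample, with gene names coloured by role. Mpc2 KO replicate 1 is above the WT mean in every gene shown, and WT replicate 1 and Mpc2 KO replicate 2 are below it in most.

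These libraries also differed in fragment length as estimated from the effective transcript lengths that Salmon gave. The estimate was 344 bases in WT replicate 1 and 302 to 304 bases in the other WT samples, and 327 bases in KO replicate 2 and 281 to 288 bases in the other KO samples. Without KO replicate 2, every KO library thus had shorter fragments than every WT library. The complex I transcripts are short, with a median length of 730 bases where that of all genes tested was 2138 bases. Among all 738 genes tested under 750 bases, 62.5% had a log2 fold change above 0 (median 0.05), and among the 23 complex I genes under 750 bases, 18 did (median 0.11).

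With transcript length as an offset in the fit, the median of all genes under 750 bases was 0.00110 and that of the 23 complex I genes was 0.06, with 15 of them above 0. Over all 45 genes the median with the offset was 0.05, and 32 were above 0, where 49% of all genes tested were. *Ndufv2* (0.25) and *Ndufaf6* (0.19) kept their size under the offset, while *Ndufb6* went from 0.20 to 0.15 and *Ndufb8* from 0.19 to 0.14. *Ndufab1* went up, from 0.14 to 0.28 (adjusted p = 0.345 from edgeR). Without WT replicate 1 and KO replicate 2, a choice made after their fragment lengths were seen, the median was 0.10 with 40 of 45 genes above 0, and 0 genes passed an adjusted p of 0.05 in edgeR (14 were higher at an unadjusted p under 0.05, where 6.1% of all genes tested were). In that fit every KO library had shorter fragments (281 to 288 bases) than every WT library (302 to 304 bases). The part of fragment length in these values was not tested.

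**Figure D5:**
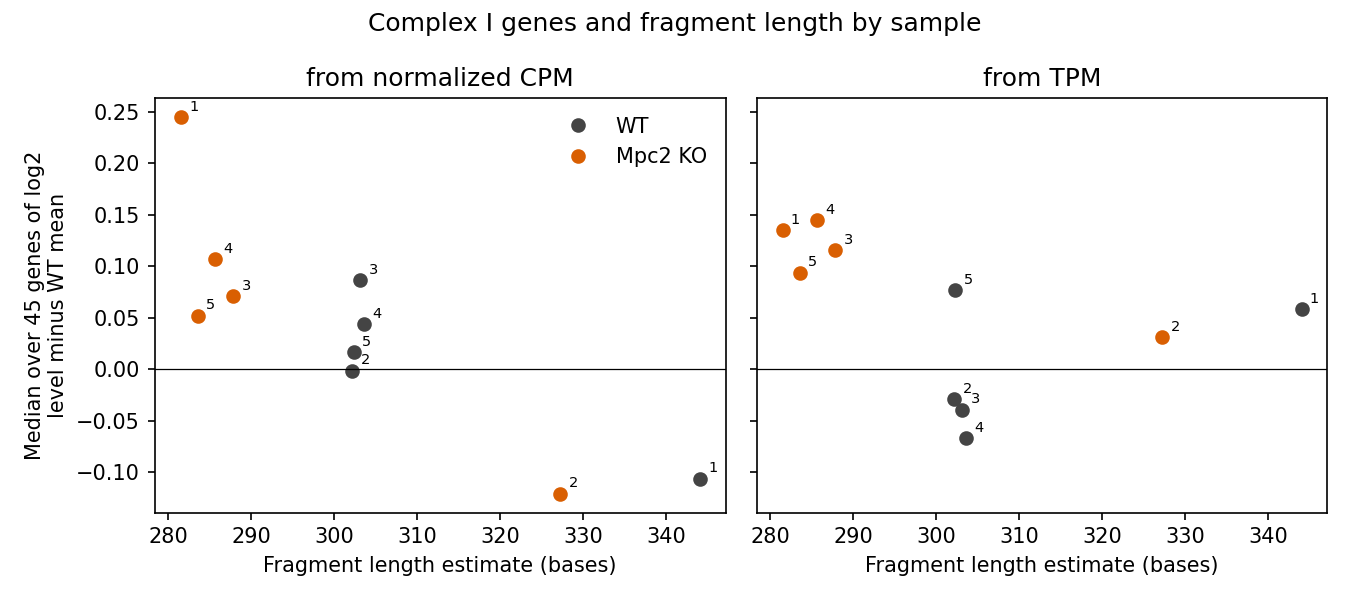
Median over the 45 tested complex I genes of the log2 level minus the WT mean, from normalized CPM (left) and TPM (right), against the fragment length estimate in bases, for each numbered WT and Mpc2 KO sample. The samples with the longest fragments, WT replicate 1 (344 bases) and Mpc2 KO replicate 2 (327 bases), are the lowest of the 10 in CPM. In TPM, Mpc2 KO replicate 2 is still the lowest KO sample, at 0.03, and WT replicate 1 is at 0.06.

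Summed TPM of the 46 genes, which is scaled to effective length, was 24176, 24134, 23771, 22461, and 25031 in WT replicates 1 to 5 and 26597, 24435, 26138, 27100, and 26190 in KO replicates 1 to 5. KO replicate 2 lay within the WT range and the other 4 KO samples lay above it. The ratio of the KO mean to the WT mean was 1.09, with means of 26092 ± 1004 and 23915 ± 935 TPM (SD, n = 5 each). The same ratio was 1.12 for the mitochondrial-encoded subunits, 1.09, 1.06, and 1.05 for the nuclear subunits of complexes II, III, and IV, and 1.06 for those of ATP synthase. The 20 genes with the most reads held 17.9 to 21.6% of reads in WT samples and 14.9 to 18.3% in KO samples, and the part of this in the TPM values was not tested. The median log2 fold change over all genes was 0.05 in limma on log2(TPM + 1). In normalized CPM, the ratio for the 46 genes was 1.07. KO replicates 1 (13641 CPM) and 4 (12562 CPM) lay above the WT range of 10406 to 12137.5 CPM. KO replicates 2, 3, and 5 lay within it. By role, summed TPM in WT and KO was 2143 ± 169 and 2329 ± 143 for the core subunits, 5994 ± 152 and 6342 ± 257 for the peripheral arm, 12015 ± 393 and 13004 ± 450 for the membrane arm, and 528 ± 25.5 and 562 ± 10.1 for the assembly factors (SD, n = 5 each). *Ndufab1* was at 625 ± 58.7 TPM in WT and 791 ± 88.7 TPM in KO (SD, n = 5 each).

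Transcripts were fitted separately to ask whether any isoform differed. The 46 genes had 226 transcripts, of which 124 were tested, and 0 passed an adjusted p of 0.05 in edgeR, where 0.042% of the 26185 transcripts tested passed. At an unadjusted p under 0.05, 13 were higher in KO and 2 were lower, where 3.19% and 2.96% of all transcripts tested were. DESeq2 called 1 of the transcripts, of *Ndufv2*. In 24 of 45 genes a single transcript held at least 90% of the TPM of the gene. Transcripts not annotated as protein-coding held a median of 1.11% of the TPM of a gene and at most 90.1%, and the gene totals include them. In *Ndufa5*, a processed transcript held 75.7% and a retained intron 14.4%. In *Ndufs4*, ENSMUST00000225707 and ENSMUST00000225035, both annotated for nonsense-mediated decay, held 50.8% and 26.6%. These were not the only such genes. A nonsense-mediated decay transcript held 59.4% in *Ndufa3*, and in *Ndufa10* a retained intron held 41.0% and a nonsense-mediated decay transcript 19.9%. Both main *Ndufv2* transcripts were higher in KO, ENSMUST00000024909 with 81.7% of the TPM of the gene (log2 fold change 0.31, adjusted p = 0.369 from edgeR) and ENSMUST00000143987 with 17.7% (log2 fold change 0.14, adjusted p = 0.684 from edgeR). The 2 lower transcripts were minor, ENSMUST00000233233 of *Ndufa11* and ENSMUST00000222930 of *Ndufs6*, with 0.339% and 0.562% of the TPM of their genes.

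*Ndufb4*, a membrane arm subunit, shares its reads with a copy and its level is uncertain. The processed pseudogene *Ndufb4c* (chromosome 15, 73809507 to 73809896, GRCm38) matched *Ndufb4* (chromosome 16, 37647170 to 37654453) at 100% over all 390 of its bases, and was given 35.9 to 47.0% of the summed reads in each sample. The first 120 bases that they share, with the start codon in capitals, are shown because these bases alone cannot assign a read to either.
Ndufb4 and Ndufb4c: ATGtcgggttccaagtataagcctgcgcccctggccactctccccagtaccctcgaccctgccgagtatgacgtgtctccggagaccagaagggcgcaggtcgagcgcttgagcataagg
*Ndufb4* alone was at 110 ± 2.03 CPM in WT and 113 ± 20.1 CPM in KO, and the sum of both was at 191 ± 14.2 and 203 ± 41.0 CPM (SD, n = 5 each, exact two-sided permutation test, p = 0.571). The other near-identical copies of complex I genes held at most 11 reads in a sample. *Ndufa13* overlaps *Tssk6*, which was given 23 to 60 reads. Among the symbols left out, *Ndufb1-ps* was at 128 ± 15.2 CPM in WT and 143 ± 37.5 CPM in KO (SD, n = 5 each). Gencode M21 gives it as a noncoding transcript, and the newer M27 that the authors used may class it otherwise. The list of membrane arm subunits may therefore be incomplete.

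The other genes of the enzyme and its chain were examined with lists chosen by hand. None of them held a gene with an adjusted p under 0.05 in edgeR. Of the 7 mitochondrial-encoded complex I subunits, which form the proton-pumping core, 4 had a log2 fold change above 0 (median 0.04). *mt-Nd1*, which sits at the joint of the arms, was the 1 with an unadjusted p under 0.05, at 979 ± 97.1 CPM in WT and 1208 ± 127 CPM in KO (SD, n = 5 each, log2 fold change 0.30, adjusted p = 0.226 from edgeR). With transcript length as an offset, 3 of the 7 mitochondrial-encoded subunits were above 0 (median −0.02). Of the 10 tested assembly factors outside the *Ndufaf* series, *Tmem70* and *Tmem126b* were higher (log2 fold changes 0.16 and 0.19) and *Acad9* was lower (−0.21) at an unadjusted p under 0.05, and the median of the list was −0.02.

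The nuclear subunits of the other complexes were counted in the same way, and differences between the complexes were not tested. Log2 fold changes were above 0 for 3 of 4 complex II genes (median 0.05), 7 of 9 complex III genes (median 0.07), 9 of 10 complex IV genes (median 0.06), and 15 of 16 ATP synthase genes (median 0.03). With transcript length as an offset, these counts were 3 of 4, 7 of 9, 5 of 10, and 10 of 16. At an unadjusted p under 0.05, 2 of the ATP synthase genes were higher and 0 genes of complexes II, III, and IV differed.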

How the data were processed

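CD45.2+ GMPs were sorted by the authors and their SMARTseq libraries were read on a NovaSeq instrument. Salmon then assigned reads to the transcripts of Gencode M27 (1.5.1 in the submitters' processing notes, which also name DESeq2 2.11.40.6). The deposited values of a sample are estimated counts per transcript, not normalized by the authors, and TPM, which Salmon scales to effective transcript length. A deposited table of the authors' own DESeq2 comparison (fold changes and p-values) was not used.

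Estimated counts and TPM were summed per gene through Gencode M21 (GRCm38), which matched 97.4% of transcripts on Ensembl identifiers. Transcripts that did not match held 0.348 to 0.390% of the reads. Counts were rounded, filtered with filterByExpr (minimum 10), TMM-normalized, and tested for *Mpc2* KO against WT in edgeR 4.0.16 (quasi-likelihood test, R 4.3.3) with Benjamini-Hochberg adjustment over all genes (or transcripts) tested and a threshold of 0.05. The fit was tested on simulated data. CPM here is normalized CPM. DESeq2 1.42.0, limma 3.58.1 on log2(TPM + 1) or log2(TPM + 0.1), other normalizations and filters, a transcript length offset, the replicate number as a block, added copies, and leaving out each sample were the alternatives. Near-identical copies were found with BLAST 2.17.0 (at least 95% identity over 300 bases). Fragment length was the median of length minus effective length over transcripts above 2000 bases.

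The members and lists were chosen with earlier results of these data known. Genes were named by rule: non-overlapping groups, the 5 smallest p-values in each direction, the 5 highest and 5 lowest TPM, the core subunits, the assembly factors, *Ndufa4*, *Ndufa4l2*, *Ndufab1*, and genes not tested. The values of 1 tested gene are not reported here or drawn by name, and counts and medians include it. Others (such as *Ndufb4*, *Ndufa3*, *Ndufa5*, *Ndufa10*, and genes outside the 46) were named after their values were seen. The samples are labelled as biological replicates, and the precision of each value is that of 5 samples a group at the depths given.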

Additional observations from a re-analysis of the deposited data

Results flagged for a closer look

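The 104 groups of 5 samples examined were of the tested complex I genes, *Mpc2*, and sums of complex I genes. In 8 of them, 1 sample was far from the other 4 by Dixon's test. Chance flags about 1 in 20 groups, or 5.2 here, but the sums share genes with the rest and the groups are not independent. WT replicate 1 was low for *Ndufb6* (242 CPM, others 304 to 312 CPM), *Ndufa5* (139 CPM, others 180 to 196 CPM), and *Ndufs5* (215 CPM, others 261 to 278 CPM). *Mpc2* KO replicate 2 was low for *Ndufa4* (856 CPM, others 1191 to 1311.5 CPM) and *Ndufaf5* (20.6 CPM, others 25.3 to 26.5 CPM). These are the 2 libraries with the longest fragments, and the part of fragment length in these values was not tested. The others were *Ndufaf3* in KO replicate 1 (74.2 CPM, others 59.2 to 62.8 CPM), *Ndufaf2* in WT replicate 2 (43.8 CPM, others 53.4 to 54.7 CPM), and *Ndufs4* in WT replicate 5 (177 CPM, others 166 to 168 CPM).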

How the results depend on the processing

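The number of complex I genes called was 0 in the 24 other fits except for 1 (*Ndufv2*) with DESeq2 and 1 without KO replicate 2, so leaving out each sample gave 0 to 1. DESeq2 also called 1 complex I transcript. The number at an unadjusted p under 0.05 was 15 with library size as the only normalization (where 9.30% of all genes were higher at that p and their median was 0.07), 9 in each of the 3 limma fits (where 6.84, 6.76, and 3.96% of all genes were higher), 14 without the pair of libraries with the longest fragments (chosen after seeing the data), and 2 to 14 when each sample was left out. The median log2 fold change stayed between 0.03 and 0.14, and the log2 ratio of summed TPM, 0.13, between 0.09 and 0.15. Over all genes, 206 were called without a filter, 156 with DESeq2, 25, 24, and 13 with limma on log2(TPM + 1), on log2(TPM + 0.1), and without a filter, 71 without the longest-fragment pair, and 25 to 91 when each sample was left out. Numbers shared between the groups did not pair the samples (correlations of −0.18 to 0.06). With the replicate block, 0 complex I genes and 20 genes in all were called. *Mpc2* kept its direction but lost its call with robust dispersions (−1.46), the length offset (−1.40), the replicate block (−1.46), and limma (−1.35, −1.38, and −1.35 in the same order as above), with −1.60 to −1.31 when each sample was left out (the call was also lost without KO replicate 1, edgeR adjusted p = 0.05002).

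Of the 24 named complex I genes with a fit, 15 kept their sign throughout. The sign changed with library size alone for *Ndufaf8* (0.0596), *Ndufb11* (0.0302), *Ndufb7* (0.0382), and *Ndufs4* (0.0359), with the length offset for *Ndufaf2* (−0.0209), *Ndufaf8* (0.000849), and *Ndufs7* (−0.0206), in the limma fits for *Ndufaf8* (0.0665, 0.0669, and 0.0665) and *Ndufs4* (0.0133, 0.0134, and 0.0133), and without the longest-fragment pair for *Ndufb11* (0.00390), *Ndufs4* (0.0124), and *Ndufs7* (−0.00432). Leaving out each sample gave −0.0258 to 0.12 for *Ndufaf2*, −0.0134 to 0.0907 for *Ndufaf7*, −0.0673 to 0.0377 for *Ndufaf8*, −0.12 to 0.0260 for *Ndufb11*, −0.0855 to 0.00484 for *Ndufb7*, −0.0107 to 0.0283 for *Ndufs1*, −0.0135 to 0.0503 for *Ndufs3*, −0.11 to 0.0137 for *Ndufs4*, and −0.00303 to 0.0467 for *Ndufs7*. The cause was not tested. The size of the differences, against a median standard error of 0.08, limits what 5 samples a group can show.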
